A study of Mus musculus with 6 samples.

Results

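Arginine metabolism was followed through 6 genes, Arg1, Arg2, Nos2, Slc7a2, Ass1 and Odc1, picked by symbol out of the 32285 genes of a single-cell data set. All 6 were found in the matrix. The cells came from tumors of MOC-2, a mouse line of head and neck squamous cell carcinoma (HNSCC), grown under the skin of 6 male mice and taken 24 h after an injection into the tumor. Per the labels, 3 tumors had received the DMSO vehicle and 3 an experimental agent. The protocol's reagent list holds an arginase inhibitor, Nw-Hydroxy-nor-L-arginine, and a nitric oxide synthase inhibitor, L-NMMA, without saying which reagents the treated tumors received. Strain and age are not given. Viable cells, sorted by dye exclusion, were tagged by tumor, and equal shares were pooled for droplet sequencing of transcript 3' ends.

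Arginine is the shared substrate of opposing enzymes in myeloid cells. Arginases, the cytosolic Arg1 and the mitochondrial Arg2, split it to ornithine and urea, and ornithine feeds ornithine decarboxylase, Odc1, the entry to polyamine synthesis. Inducible nitric oxide synthase, Nos2, turns it into nitric oxide and citrulline, which argininosuccinate synthase, Ass1, recycles toward arginine. Slc7a2 carries arginine into the cell. In tumors, arginase-expressing macrophages, monocytes and neutrophils are known for draining arginine that T cells need, and Arg1 and Nos2 have long served as markers of alternatively and classically activated macrophages.

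On mouse build mm10 (GENCODE M21), Arg1 lies at chr10:24915221-24927484 on the minus strand. The other genes are on the plus strand, Arg2 at chr12:79130777-79156301, Nos2 at chr11:78920787-78960254, Slc7a2 at chr8:40862396-40922308, Ass1 at chr2:31470207-31520672 and Odc1 at chr12:17544794-17551505. Arg2 overlaps Vti1b and Slc7a2 overlaps Gm26584 on the opposite strand, and Odc1 overlaps Gm22748 on its own strand. How the authors' counting divided reads in those overlaps is not given in the sources used here.

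The matrix held 14818 cells and 141434361 gene UMIs (unique molecular identifiers, each counting 1 captured transcript molecule). The barcodes end in 1 of 6 suffixes, called barcode sets here, of 901 to 4077 cells and 7354560 to 38798439 UMIs, and 0 barcode sequences were shared between sets. No label ties a set or a tag to a tumor, so treated and vehicle tumors could not be compared and no p-value is given. The pool is 1 sample, and values per set stand beside it without a group. Intervals are exact 95% intervals for counting error only, not for the spread between tumors. For levels and ratios they also leave out the spread between cells. After filtering, 13768 cells remained, of which 10300 passed 1 marker gate. Levels are UMIs of a gene per 1000000 UMIs of the cell group (CPM), and because transcripts differ in how well their 3' ends are captured, levels are compared between cells and not between genes.

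Lyz2-positive myeloid cells, taken as the monocytes and macrophages of the pool, numbered 1166. Complement C1q, made by tumor-associated macrophages, split them into 573 C1q-high cells (5 or more summed UMIs of C1qa, C1qb and C1qc), 177 C1q-low cells (1 to 4) and 416 C1q-zero cells. Monocyte transcripts ran the other way, with Ly6c2 at 624 CPM in C1q-high and 2011 CPM in C1q-zero cells. The macrophage receptor Mrc1 was at 321 and 110 CPM. Another 573 cells with the myeloid adaptors Tyrobp and Fcer1g but under 2 Lyz2 UMIs were kept apart as Lyz2-low myeloid. They carried Ighm at 643 CPM against 13.3 CPM in Lyz2-positive cells, and the part of these transcripts in the results on that group was not tested.

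Arg1, Arg2, Nos2, Slc7a2 and Ass1 were each at least 2-fold higher in Lyz2-positive cells than in all other gated cells together. Across 14016 genes with enough UMIs, 12.7% were 2-fold or more higher there and 30.8% were 2-fold or more lower. The ratio was 41.5 for Arg2 (interval 35.1 to 49.2), 33.1 for Arg1 (31.5 to 34.7), 8.27 for Nos2 (7.0 to 9.74), 7.47 for Ass1 (6.45 to 8.62) and 2.05 for Slc7a2 (1.72 to 2.43). Odc1 stood apart from the other 5 genes, at 0.637 (0.603 to 0.674), with its highest levels in T cells and carcinoma cells. Mesenchymal carcinoma cells, with 91534224 UMIs, gave most UMIs of the other gated cells, so these ratios were mainly against carcinoma cells. Each of the 5 higher genes exceeded its Lyz2-positive level in some other group. Arg2 was at 364 CPM in neutrophils against 97.7, and Ass1 at 136 in dendritic cells against 69.7. Slc7a2 was at 159 CPM in pericytes or smooth muscle cells against 42.2. In Lyz2-low myeloid cells Nos2 was at 120 against 55.2 CPM and Arg1 at 1154 against 1073.

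**Figure D1:**
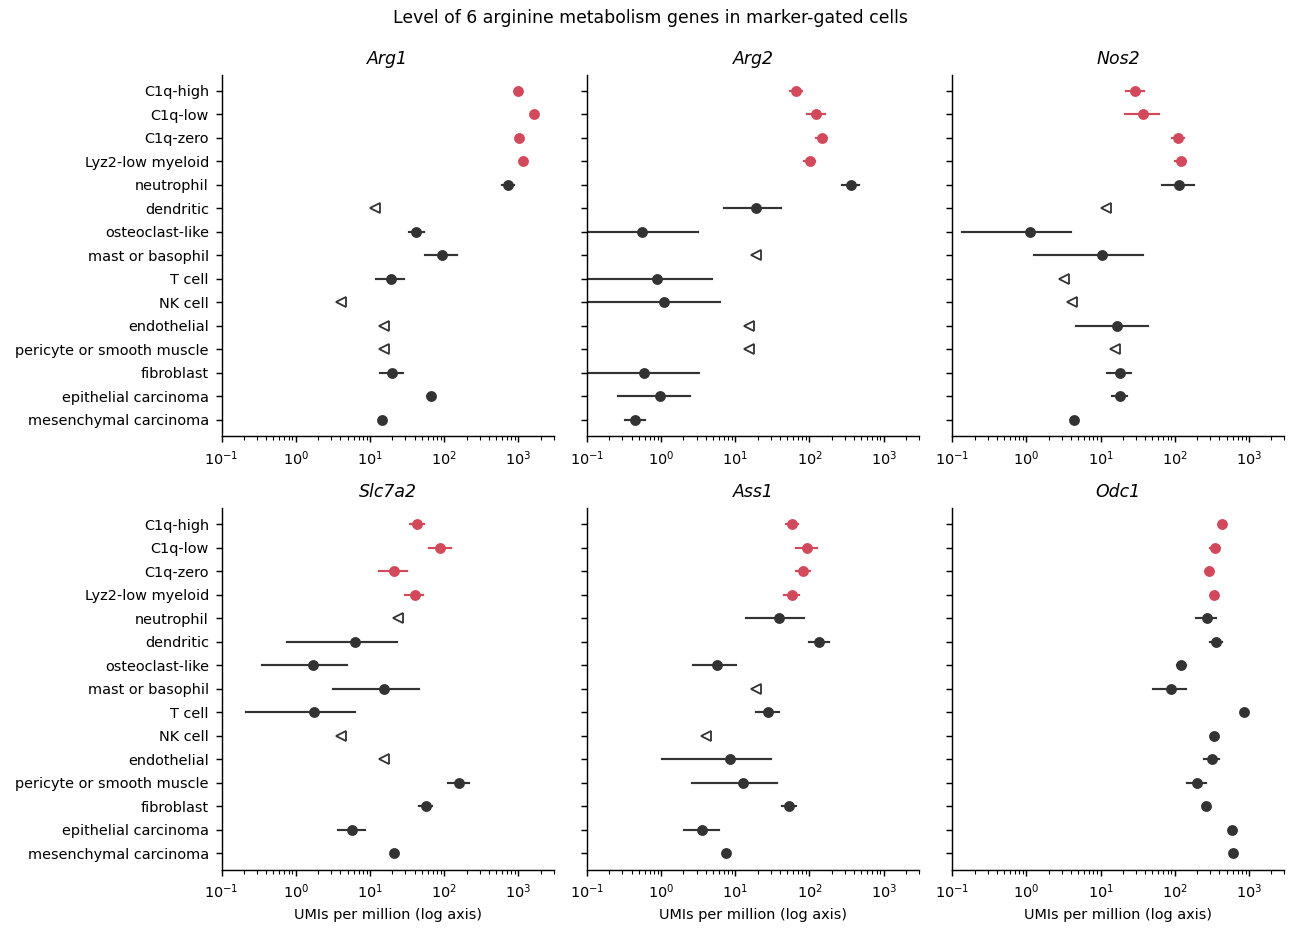
Level of each gene (x axis, CPM, log scale) in 15 gated cell groups (y axis), with exact 95% Poisson intervals as bars. Bars that reach below the axis stop at its left edge, red marks the 3 C1q strata and Lyz2-low myeloid cells, and open triangles mark the upper interval bound of groups with 0 UMIs. Arg1 lies near or above 1000 CPM in the 4 red groups and under 100 CPM outside them except in neutrophils, while Odc1 is above 80 CPM in every group shown.

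Arg1, the cytosolic arginase, had its highest levels in monocytes and macrophages. Its level was 1605 CPM in C1q-low cells (1487 to 1730), 1154 CPM in Lyz2-low myeloid cells (1097 to 1214), 1028 CPM in C1q-zero cells (967 to 1091) and 979 CPM in C1q-high cells (936 to 1025). The intervals of the last pair overlapped under this split. No Arg1 UMI was found in 207 NK cells, which allows a share of cells with a UMI of up to 1.45%. This does not limit the share that expresses the gene. Nor was a UMI found in 28 endothelial cells, 35 pericytes or 96 dendritic cells, whose gate took only cells with under 2 Lyz2 UMIs. T cells, which give a guide to free transcript at a like depth (median 2241 UMIs against 2423 in Lyz2-positive cells), had Arg1 in 2.70% of cells against 39.6% of Lyz2-positive cells.

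Within the Lyz2-positive cells Arg1 was carried by a minority. It was undetected in 704 cells, while 118 cells with 10 or more UMIs, 10.1% of all, held 69.4% of the Arg1 UMIs and the highest cell had 66. By barcode set the Arg1 level in Lyz2-positive cells was 1092, 1596, 762, 956, 764 and 1451 CPM for sets 1 to 6. Sets 2 and 6 were the highest and sets 3 and 5 the lowest, and the intervals of the first pair (1466 to 1734 and 1329 to 1581) lay above those of the second (640.8 to 900.0 and 689 to 845).

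The C1q-low stratum had a higher Arg1 level than C1q-high cells, with a ratio of 1.64 (1.5 to 1.79), in 5 of 6 sets. In the C1q-low stratum 23 cells with 10 or more UMIs held 73.1% of the Arg1 UMIs. The interval leaves out this spread between cells and is therefore too narrow. In C1q-low cells the sets were at 2398, 1967, 139, 1308, 1109 and 2035 CPM, the third of them with 10 cells. In C1q-high cells they were at 953, 1878, 1351, 759, 754 and 1275 CPM. Since the split uses raw C1q UMIs it also follows depth, and medians were 2750, 2005 and 2203 UMIs in C1q-high, C1q-low and C1q-zero cells. With every cell thinned to 1000 UMIs before the split, the ratio was 2.52 (2.29 to 2.77), with C1q-high cells at 605 CPM. The share of cells with an Arg1 UMI differed less, at 30.2% of C1q-high (26.4 to 34.2), 37.5% of C1q-low (30.0 to 45.5) and 30.6% of C1q-zero cells (26.0 to 35.4) after thinning, and 40.7%, 42.4% and 37.0% before. Cells that passed a second gate were left out. Kept in, they brought the C1q-high level to 588 CPM and the ratio to 1.93.

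Between C1q-zero and C1q-high cells the Arg1 ratio was 1.05 (0.973 to 1.13), with 3 of 6 sets on either side, and it depended on how the cells were split. With the split on thinned cells, C1q-zero cells were at 1077 CPM (1022 to 1135) and C1q-high cells at 605 CPM (558 to 655). Split at 10 C1q UMIs they were at 1028 and 776 CPM, and with cells of a second gate kept in at 706 and 588 CPM. Doubled gate cut-offs turned the order, with 838 CPM in C1q-zero and 1006 CPM in C1q-high cells. Among the 6 genes, Arg2 and Nos2 were 2-fold or more higher in C1q-zero than in C1q-high cells and Slc7a2 was 2-fold or more lower. Over 5870 genes, 3.00% were 2-fold or more higher and 6.58% were 2-fold or more lower in C1q-zero cells.

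**Figure D2:**
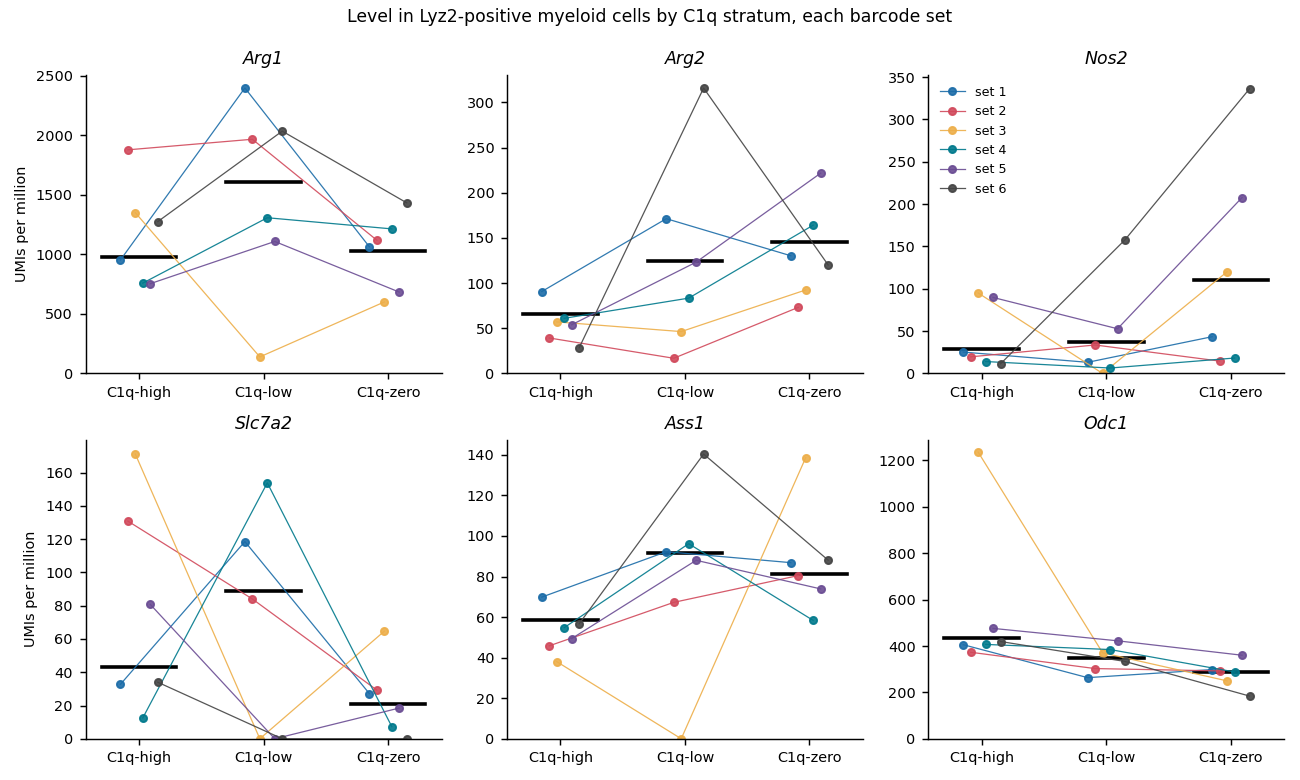
Level of each gene (y axis, CPM) in C1q-high, C1q-low and C1q-zero Lyz2-positive cells (x axis), 1 coloured point and line per barcode set and a black bar for the pooled cells. Arg2 is higher in C1q-zero than in C1q-high cells in all 6 sets, Odc1 is lower in all 6, and Arg1 runs from 600.7 to 1878 CPM over both strata. The C1q-low point of set 3 rests on 10 cells.

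Arg2, the mitochondrial arginase, had its highest level in neutrophils, which held 7.61% of its UMIs against 44.2% in the more numerous Lyz2-positive cells. The 60 neutrophils were gated on S100a8 and S100a9 with a UMI of Csf3r, Cxcr2, Retnlg or G0s2. They had Arg2 at 364 CPM (276 to 472) and an Arg2 UMI in 34 cells, 56.7%. Next came C1q-zero cells at 145 CPM (123 to 171), C1q-low at 124 (93 to 162), Lyz2-low myeloid at 101 (84.7 to 120) and C1q-high at 65.7 (54.8 to 78.3). The intervals of C1q-low cells overlapped those of C1q-zero and of Lyz2-low myeloid cells. With cells of a second gate kept in, neutrophil Arg2 was at 148 CPM (115 to 187), and with 1000 or more genes and under 10% mitochondrial UMIs it was at 255 CPM (161 to 382). Outside these groups and dendritic cells (19.0 CPM), Arg2 was at or below 1.1 CPM, with 41 UMIs in 7017 mesenchymal carcinoma cells.

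Neutrophils carry little RNA, and most fell under the filter of 500 genes. With at least 200 genes and under 25% mitochondrial UMIs, 284 neutrophils had Arg2 at 494 CPM (421 to 575) and in 37.3% of cells (31.7 to 43.2). The level by set was 608, 366, 289, 347, 521 and 602 CPM, with 10 to 90 cells a set. Arg1 was in 11 of these 284 cells, 3.87%, and 4 of the 11 also held a C1q UMI, a macrophage transcript. The neutrophil Arg1 level of 722 CPM under the main filter rested on few cells, since 1 cell with 41 UMIs gave 36.3% of it and the level without that cell was 485 CPM. Of the 284 neutrophils 5 held both arginases, and Arg1 was in 4.72% of Arg2-positive and 3.37% of Arg2-negative cells.

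In Lyz2-positive cells Arg2 was higher where C1q was absent. The level was 90.7, 39.3, 57.1, 61.0, 53.9 and 28.3 CPM in C1q-high cells of sets 1 to 6, and 130, 73.1, 92.4, 164, 222 and 120 CPM in C1q-zero cells. Each set was higher in C1q-zero cells, and the pooled ratio was 2.21 (1.74 to 2.82). Detection after thinning to 1000 UMIs was 6.22% in C1q-high cells (4.37 to 8.54) and 15.0% in C1q-zero cells (11.6 to 19.0). The neutrophil genes S100a8 and S100a9 moved with it: S100a8 was at 45.9 CPM in C1q-high and 256 CPM in C1q-zero cells, against 16302 CPM in neutrophils, and S100a9 at 30.8 and 52.6 CPM against 23933. Their part in the Arg2 difference was not tested.

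Nos2, the inducible nitric oxide synthase, had its highest levels in Lyz2-low myeloid cells (120 CPM, 102 to 140), neutrophils (115 CPM, 68.1 to 182) and C1q-zero cells (110 CPM, 90.9 to 132), 3 groups whose intervals overlapped. It was at 37.5 CPM in C1q-low and 29.2 CPM in C1q-high cells. The ratio of C1q-zero over C1q-high was 3.77 (2.71 to 5.28), with 5 of 6 sets in that direction. The thinned shares of cells with a UMI, 4.66% (2.79 to 7.27) and 2.49% (1.37 to 4.14), overlapped. Barcode set 6 carried much of it, and without that set the ratio was 2.56 (1.77 to 3.71). T, NK and dendritic cells and pericytes had 0 Nos2 UMIs.

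Between barcode sets Nos2 had a wider relative range than either arginase. In Lyz2-positive cells the level was 27.9, 20.1, 98.7, 14.0, 137 and 148 CPM for sets 1 to 6, with a UMI in 5.45%, 4.32%, 5.97%, 2.35%, 12.6% and 14.0% of cells. In Lyz2-low myeloid cells it was 91.4, 37.3, 11.1, 22.8, 180 and 368 CPM, again with sets 5 and 6 highest but set 3 lowest. Mesenchymal carcinoma cells, which bear Xist, lack Y-linked transcripts and have no Ptprc UMI, had far less Nos2, at 1.23, 0.210, 17.0, 0.879, 8.49 and 20.4 CPM in sets 1 to 6. Sets 3, 5 and 6 were thus the 3 highest in both Lyz2-positive and mesenchymal carcinoma cells, and no label says which tumors these were. The place of set 3 rests on few cells. Of its 67 Lyz2-positive cells, Nos2 was in 2 with Arg1 and 2 without. Of its 161 mesenchymal carcinoma cells, 3 had 5 or more Nos2 UMIs.

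A few carcinoma cells expressed Nos2 strongly. Among mesenchymal carcinoma cells 24 had 5 or more UMIs, up to 29, and 10 of these were in set 5 and 8 in set 6. They had 0 Arg1 UMIs and 1 of 24 had a Lyz2 UMI. In the 286 epithelial carcinoma cells, marked by Epcam or Krt5 and Krt14, the level was 18.1 CPM (14.2 to 22.6), and 5 cells had 5 or more UMIs.

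Slc7a2, the arginine carrier, had its highest levels in pericytes or smooth muscle cells and in C1q-low cells (89.1 CPM, 63.0 to 122), whose intervals overlapped. Pericytes or smooth muscle cells had 159 CPM (113 to 219) and a UMI in 17 of 35 cells, 48.6%, fibroblasts had 56.2 CPM (45.6 to 68.7), and mesenchymal carcinoma cells 20.9 CPM (20.0 to 21.8). The mesenchymal carcinoma cells held 58.0% of all Slc7a2 UMIs by their number. Neutrophils had 0 UMIs, and 1 of the 284 neutrophils of the wider filter had one.

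In Lyz2-positive cells the Slc7a2 order of the C1q strata depended on which cells were kept. C1q-high cells were at 43.3 CPM, C1q-low at 89.1 CPM and C1q-zero at 21.1 CPM, and 1 cell with 23 UMIs gave 60.5% of the C1q-low count. Without it the C1q-low level was 35.7 CPM (20.0 to 58.9). The ratio of C1q-zero over C1q-high was 0.486 (0.289 to 0.786) and C1q-zero cells were lower in 6 of 6 sets. With cells that passed a second gate kept in, it was 1.08 (0.764 to 1.52), and split on thinned cells it was 0.641 (0.406 to 1.01), so no direction is read from it.

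Ass1, which recycles citrulline toward arginine, was highest in dendritic cells at 136 CPM (98.7 to 184), with a UMI in 29.2% of 96 cells. C1q-low cells had 91.4 CPM (65.0 to 125), C1q-zero cells 81.4 (65.0 to 101), C1q-high cells 58.4 (48.1 to 70.3) and fibroblasts 52.7 (42.4 to 64.8). Neighbours in this order overlapped. C1q-zero cells exceeded C1q-high cells in 6 of 6 sets by a small ratio, 1.39 (1.04 to 1.86). Of 207 NK cells and 73 mast cells or basophils, 0 had a UMI, and carcinoma cells were at 3.61 CPM (epithelial) and 7.53 CPM (mesenchymal).

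Odc1, the first enzyme of polyamine synthesis, was present in every group tested. T cells were highest at 868 CPM (815 to 924), followed by mesenchymal carcinoma cells at 618 (613 to 623) and epithelial carcinoma cells at 598 (575 to 622), which did not differ beyond counting error. The 5 sets with at least 20 T cells lay between 748 and 1013 CPM. In mesenchymal carcinoma cells the 6 sets ran from 349 to 761 CPM, with a median of 525. After thinning to 1000 UMIs, Odc1 was in 48.3% of T cells (42.9 to 53.7), 35.1% of mesenchymal carcinoma cells (34.0 to 36.3) and 28.6% of NK cells (22.5 to 35.3).

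Within Lyz2-positive cells Odc1 was lower where C1q was absent, opposite to Arg2. Its level was 436 CPM in C1q-high cells (407 to 466), 349 in C1q-low (295 to 410) and 289 in C1q-zero (257 to 324). C1q-high sets were at 406, 373, 1236, 407, 476 and 419 CPM and C1q-zero sets at 299, 293, 249.5, 288, 360 and 184 CPM. No C1q-zero set reached the C1q-high sets, and the ratio was 0.663 (0.580 to 0.758).

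Nos2 was found mostly in cells that also had Arg1. Of 75 Lyz2-positive cells with a Nos2 UMI, 56 had Arg1, 74.7% (63.3 to 84.0), where 29.7 would be the product of the separate shares. Nos2 was in 12.1% of Arg1-positive cells (9.29 to 15.5) and in 2.70% of Arg1-negative cells (1.63 to 4.18). The share was higher with Arg1 in every set, at 10.3% against 1.43%, 9.84% against 0%, 10.0% against 4.26%, 5.51% against 0.781%, 17.1% against 9.40% and 27.3% against 3.03% in sets 1 to 6. Thinned to 1000 UMIs the shares were 7.18% and 1.71%, and thinned to 2000 UMIs they were 10.5% and 2.99%. Set 5 held 11 of the 19 Nos2-positive cells without Arg1, and without it their share was 1.36% (0.590 to 2.67).

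The same direction held within each C1q stratum. Nos2 was in 8.58% of Arg1-positive and 1.76% of Arg1-negative C1q-high cells, 13.3% and 0% (0 of 102) of C1q-low cells, and 16.9% and 4.96% of C1q-zero cells. Thinned to 1000 UMIs the C1q-high shares were 4.71% (2.05 to 9.06) and 1.53% (0.562 to 3.29), with overlapping intervals. The thinned C1q-zero shares, 9.32% (4.75 to 16.1) and 2.61% (1.06 to 5.31), overlapped too. Those of C1q-low cells were 10.0% and 0%. In Lyz2-low myeloid cells the gap was wider, with Nos2 in 26.0% of Arg1-positive cells (20.4 to 32.2) and 2.31% of Arg1-negative cells (1.00 to 4.50). There, 59 of 67 Nos2-positive cells, 88.1%, had Arg1. Whether the widths in the 2 myeloid groups differ was not tested.

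**Figure D3:**
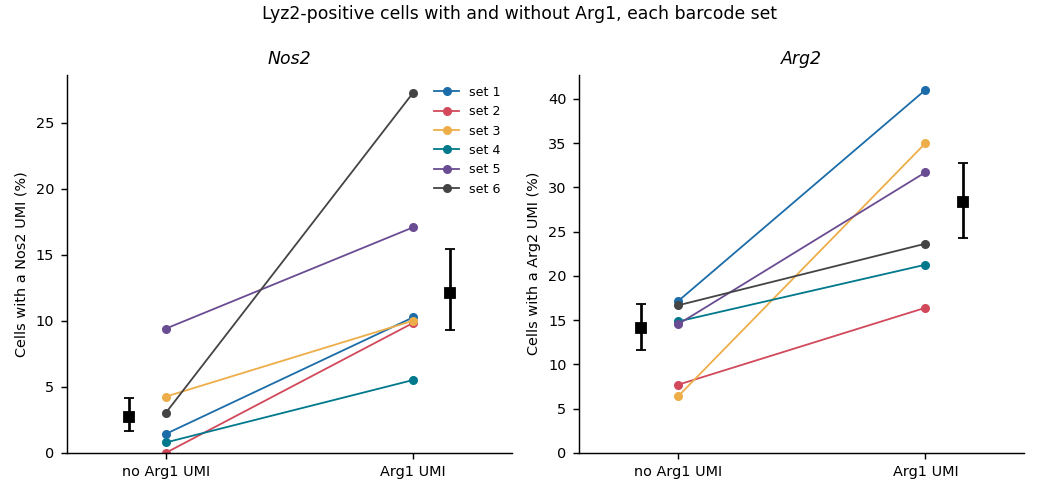
Share of Lyz2-positive cells with a Nos2 UMI (left) or an Arg2 UMI (right), y axis in percent, among cells without and with an Arg1 UMI (x axis), 1 line per barcode set. Black squares are the pooled cells with exact 95% binomial intervals, at 2.70% and 12.1% for Nos2 and 14.1% and 28.4% for Arg2, and every line rises.

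Arg2 was also more frequent beside Arg1, by a smaller factor. It was in 28.4% of Arg1-positive cells (24.3 to 32.7) and 14.1% of Arg1-negative cells (11.6 to 16.9), so that 131 cells held both arginases. Each set showed this direction, at 41.0% against 17.1%, 16.4% against 7.69%, 35.0% against 6.38%, 21.3% against 14.8%, 31.7% against 14.5% and 23.6% against 16.7%. After thinning to 1000 UMIs the shares were 14.1% (10.6 to 18.2) and 8.02% (6.19 to 10.2). Within C1q-high cells the thinned shares were 10.0% (5.93 to 15.5) with and 4.58% (2.74 to 7.14) without Arg1. They were 21.2% (14.2 to 29.7) and 12.3% (8.63 to 16.9) in C1q-zero cells, and 11.7% and 10.0% in C1q-low cells. The intervals overlapped in each stratum. Nos2 was found in 12.6% of Arg2-positive cells (8.61 to 17.6) and 4.91% of Arg2-negative cells (3.62 to 6.50).

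Slc7a2 was also more frequent beside Arg1. A UMI was present in 12.3% of Arg1-positive cells (9.48 to 15.7) and 1.56% of Arg1-negative cells (0.783 to 2.78), and 57 of 68 Slc7a2-positive cells, 83.8%, had Arg1. Thinned to 1000 UMIs it was 7.47% and 1.31%. Ass1 did not differ, at 14.7% and 14.9%. Odc1 was at 48.5% and 40.5%, and its thinned shares of 26.7% (22.1 to 31.7) and 23.7% (20.7 to 26.8) overlapped.

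Detection was also higher in cells with more Arg1. Nos2 was in 2.70% of cells with 0 Arg1 UMIs, 6.75% with 1 to 4 and 18.6% with 5 or more. Arg2 went from 14.1% to 23.4% and 34.3%, and Slc7a2 from 1.56% to 7.14% and 18.6%. Median depth was 2329, 2326 and 2845 UMIs in these classes, so the first pair of classes had like depth. In Lyz2-low myeloid cells Nos2 went from 2.31% to 13.2% and 40.6%.

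**Figure D4:**
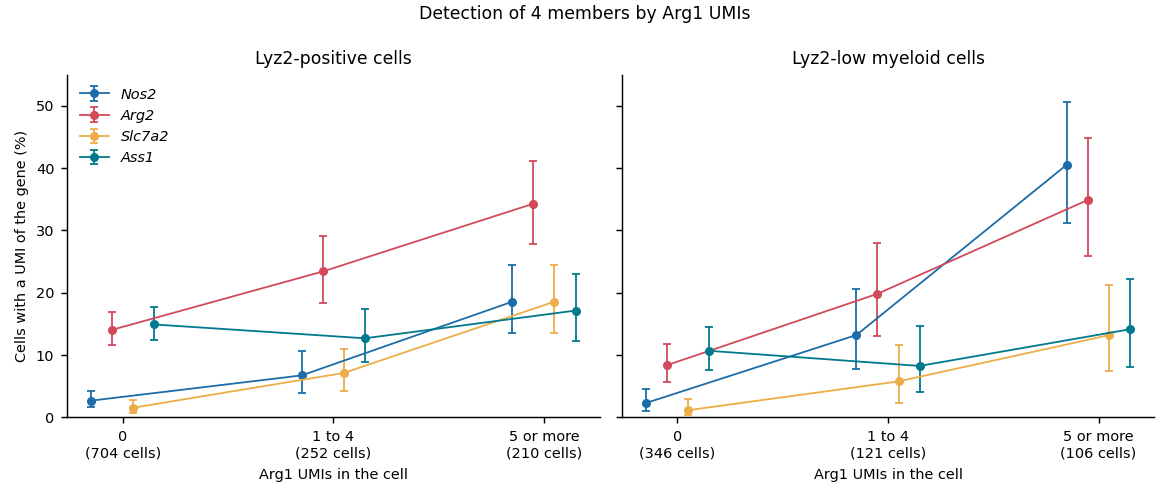
Share of cells with a UMI of Nos2, Arg2, Slc7a2 or Ass1 (y axis, percent, exact 95% binomial intervals) by the number of Arg1 UMIs in the cell (x axis), in Lyz2-positive cells (left) and Lyz2-low myeloid cells (right). Nos2, Arg2 and Slc7a2 are higher in each step of the 3 classes in both groups, Nos2 to 18.6% and 40.6%, and Ass1 stays between 8.26% and 17.1%.

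In carcinoma cells the intervals of the Nos2 shares with and without Arg1 overlapped, over few cells, so no direction is read from them. Both genes were in 6 mesenchymal carcinoma cells, where 12.6 would be the product of the separate shares. Both were in 6 epithelial carcinoma cells, where 3.65 would be that product. Among mesenchymal carcinoma cells Nos2 was in 0.881% of Arg1-positive (0.324 to 1.91) and 1.96% of Arg1-negative cells (1.63 to 2.33), and thinned to 2000 UMIs it was in 1.02% and 0.701%. In epithelial carcinoma cells it was in 10.3% (3.89 to 21.2) and 5.26% (2.75 to 9.01). Among mesenchymal carcinoma cells Slc7a2 was more frequent with Arg1, at 20.3% (17.3 to 23.5) against 11% (10.2 to 11.7), and at 14.7% against 2.51% after thinning to 1000 UMIs.

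Arg1 itself reached high counts in rare carcinoma cells. Epithelial carcinoma cells were at 66.5 CPM (58.9 to 74.8), and 13 of 286 cells had 5 or more Arg1 UMIs. Set 3, which held 164 of the 286 cells, had 8 of the 13. The highest cell had 55 UMIs, and without that cell the level was 53.9 CPM. Of the myeloid markers, Lyz2, C1qa, C1qb, C1qc and Tyrobp had 0 UMIs in the 13 cells, while Csf1r was in 3 (23.1%, against 1.32% of Arg1-negative cells), Cd68 in 1 (7.69% against 4.39%) and Fcer1g in 1 (7.69% against 3.07%). Their part in the Arg1 level was not tested. Krt6a, a keratin of stressed or stratifying epithelium, was in 9 of the 13 and in 36.4% of the Arg1-negative cells. Of 7017 mesenchymal carcinoma cells 50 reached 5 Arg1 UMIs. Lyz2 was in 4 of these (8%, against 1.53% of Arg1-negative cells) and Tyrobp in 4 (8% against 1.37%). C1qa was in 2 (4% against 1.26%), while C1qb, C1qc and Csf1r had 0 UMIs. The part of myeloid RNA in the Arg1 counts of these cells was not tested.

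The wider arginine pathway was read from gene lists. Ratios for Lyz2-positive cells are again over all other gated cells together, mainly carcinoma cells by UMIs. In arginine transport, Slc7a7, an exporter of cationic amino acids, was 21.6-fold higher in Lyz2-positive than in other gated cells (17.0 to 27.4). It was at 36.0 CPM in Lyz2-positive cells and at 50.5 CPM in endothelial cells. The widely used importer Slc7a1 was lower in Lyz2-positive cells, at 29.5 CPM and a ratio of 0.536, and the heavy chain Slc3a2 was at 334 CPM. Of the 5 measured transport genes 2 were 2-fold or more higher, the member Slc7a2 and Slc7a7. By 2-fold or more 1 was lower, Slc7a6 (0.366). Of all genes 12.7% were higher and 30.8% lower in this way. The median ratio of the 5 transport genes was 1.90 against 0.749 over all genes.

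In nitric oxide synthesis, Gch1, which starts the making of the cofactor tetrahydrobiopterin, was at 126 CPM in Lyz2-positive cells. That was 3.41-fold above all other gated cells together, but mast cells or basophils had 1228 CPM and dendritic cells 146 CPM. Within Lyz2-positive cells Gch1 was at 174 CPM in C1q-zero against 94.4 CPM in C1q-high cells. The cofactor enzymes Pts and Spr were at 25.7 and 23.9 CPM in Lyz2-positive cells. Ddah1 and Ddah2, which clear methylated arginines that inhibit the synthases, were at 2.07 and 4.13 CPM, with ratios of 0.0465 and 0.104. Of 7 genes 2 were 2-fold or more higher in Lyz2-positive cells, the member Nos2 and Gch1, and 2 were lower, Ddah1 and Ddah2. Of all genes 12.7% were higher and 30.8% lower in this way.

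Beside Ass1, the urea cycle enzyme Asl was at 20.1 CPM and the ornithine carrier Slc25a15 at 4.72 CPM in Lyz2-positive cells, with ratios of 1.23 and 0.904. The list of arginases and polyamine metabolism held 19 measured genes, among them the members Arg1, Arg2 and Odc1. In Lyz2-positive cells 5 were 2-fold or more higher, Arg1, Arg2, Sat1, Smox and Paox, and 5 were 2-fold or more lower. Of all genes 12.7% were higher and 30.8% lower in this way. The median ratio of the 19 genes, 0.755, was close to that of all genes. The polyamine acetyltransferase Sat1 was at 1119 CPM in Lyz2-positive cells (ratio 2.42, 2.34 to 2.50), and the ornithine decarboxylase antizyme Oaz1 at 1034 CPM (ratio 1.00, 0.968 to 1.04).

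Spermine oxidase, Smox, was 8.0-fold higher in Lyz2-positive cells (7.34 to 8.71), though neutrophils had 517 CPM. It went with C1q as Arg2 did, at 134 CPM in C1q-high and 310 CPM in C1q-zero cells (ratio 2.32, 1.96 to 2.75). Paox, the oxidase of acetylated polyamines, went the other way, at 26.6 and 4.79 CPM (ratio 0.180, 0.0560 to 0.448). Gatm, the first enzyme of creatine synthesis from arginine, was at 230 CPM in C1q-high and 71.8 CPM in C1q-zero cells (ratio 0.312, 0.241 to 0.399). For proline made from arginine, Oat was at 66.7 CPM in Lyz2-positive cells (ratio 0.755, 0.658 to 0.861) and Aldh18a1 at 7.38 CPM (0.387, 0.250 to 0.572), and Pycr1 had 0 UMIs there.

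Activation markers of both kinds were set against the C1q strata. Chil3, a chitinase-like protein of alternative activation, was at 868 CPM in C1q-zero and 152 CPM in C1q-high cells (ratio 5.70, 4.99 to 6.52), and Mrc1 was the other way (0.342, 0.278 to 0.418). Retnla was at 39.7 CPM in C1q-high cells and had 0 UMIs in C1q-zero cells. Of the classical list, Il6 (ratio 2.22, 1.49 to 3.32) and Gbp2, an interferon-induced GTPase (2.23, 1.78 to 2.80), were 2-fold or more higher in C1q-zero cells, Il1b was at 3059 against 1746 CPM, and Tnf was at 312 and 309 CPM. Among monocyte genes, Plac8 (ratio 5.68), Vcan (4.31), F10 (3.90), Ly6c2 (3.22), Thbs1 (2.33) and Ccr2 (2.27) were 2-fold or more higher in C1q-zero cells, and Fn1 was at 1.68.

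Lyz2-positive cells with Arg1 were then set against those without it, each thinned to 1000 UMIs, 348 against 761 cells. C1q-high cells made up 48.9% and 51.6% of the 2 groups, and the C1qa level was lower with Arg1, at 1201 against 1702 CPM (ratio 0.706, 0.631 to 0.789). Over 3199 genes 1.88% were 2-fold or more higher in Arg1-positive cells and 2.63% lower. Of the 5 partner genes, Slc7a2 (112 against 15.8 CPM, ratio 7.11, 3.65 to 14.9) and Nos2 (118 against 27.6 CPM, ratio 4.27, 2.47 to 7.60) passed 2-fold. Arg2 was at 158 against 90.7 CPM (1.74, 1.2 to 2.52), while the intervals of Ass1 (1.17) and Odc1 (1.21) held 1.

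Among 932 abundant genes, the 10 highest in Arg1-positive cells with the same direction in all 5 sets that had enough cells were Cxcl3, Pf4, Fn1, Spp1, Cxcl1, Mt1, F13a1, Hilpda, Fabp5 and Hmox1. Cxcl3 and Cxcl1, which attract neutrophils, were at 1767 against 351 CPM (5.04, 4.36 to 5.84) and 1379 against 481 CPM (2.87, 2.50 to 3.29). Pf4, a chemokine, was at 2672 against 587 CPM (4.55, 4.06 to 5.10), with 3.79 in C1q-high and 18.3 in C1q-zero cells. Fn1, fibronectin, and Spp1, osteopontin, were 3.03-fold and 2.94-fold higher. Mt1, a metallothionein, was 2.81-fold higher and Hmox1, heme oxygenase, 2.45-fold. Hilpda, a lipid droplet protein induced by low oxygen, was 2.63-fold higher and the fatty acid carrier Fabp5 2.58-fold.

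The 10 lowest were Etv3 (0.390), Cxcl10 (0.479), Lst1 (0.512), Slfn5 (0.531), Zbp1 (0.553), Coro1a (0.554), Ndufb7 (0.560), Pirb (0.574), G3bp1 (0.576) and Aif1 (0.578). Cxcl10, Slfn5 and Zbp1 are interferon-induced genes. Cxcl10 was at 290 CPM in Arg1-positive and 606 CPM in Arg1-negative cells.

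Hypoxia and glycolysis genes were all higher in Arg1-positive cells. The 7 measured had a median ratio of 1.80 against 0.937 over all genes, and 2 of them passed 2-fold, Bnip3 (4.21, 3.09 to 5.77), a mitophagy receptor, and Pgk1 (2.16, 1.80 to 2.59), a glycolytic kinase. Of all genes 1.88% were 2-fold or more higher in this comparison. The glucose carrier Slc2a1 was at 1.95, Ndrg1 at 1.80, Vegfa at 1.67, Hif1a at 1.41 and Ldha at 1.41. Between C1q-zero and C1q-high cells the same 7 genes had a median ratio of 1.07 and 0 passed 2-fold. Of all genes 3.00% were 2-fold or more higher and 6.58% lower there.

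Ccl24, an eosinophil-attracting chemokine of alternatively activated macrophages, was 31.9-fold higher in Arg1-positive cells (16.9 to 68.0), the highest of all list genes compared. Mrc1 was 1.97-fold higher (1.56 to 2.48), and Chil3 was at 0.818 (0.659 to 1.01). The classical list had 0 of 6 genes past 2-fold in either direction, where 1.88% of all genes were higher and 2.63% lower. Tnf was at 1.70, Il1b at 1.21 and Gbp2 at 0.654. Of the monocyte genes Fn1 was past 2-fold higher, while Plac8 was at 0.619 (0.573 to 0.669) and Ccr2 at 0.687 (0.548 to 0.855).

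**Figure D5:**
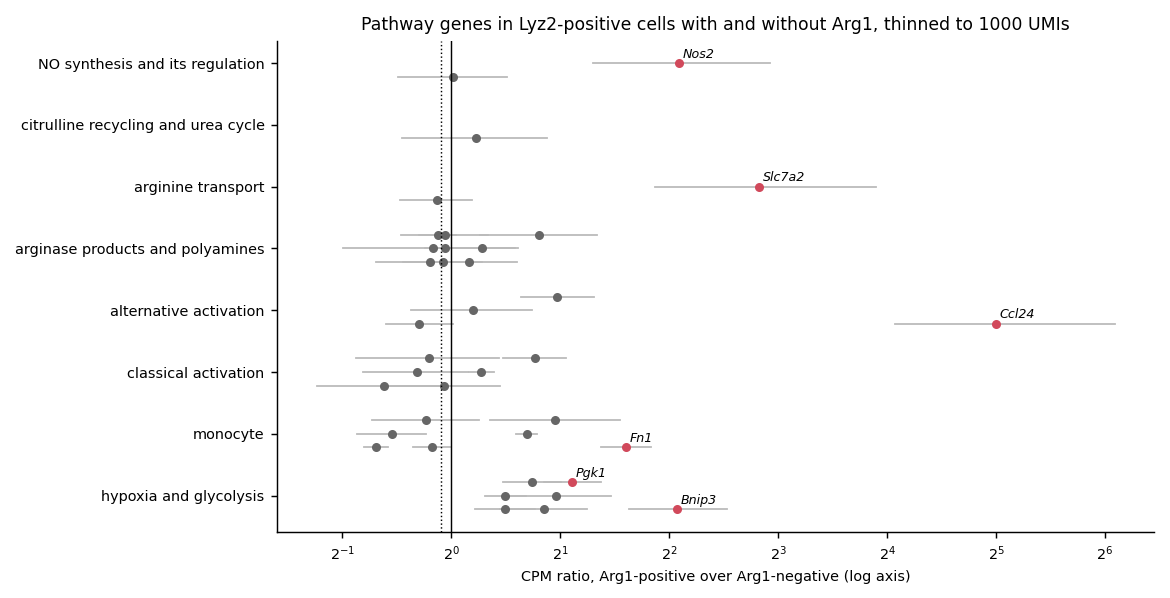
Ratio of the level in Arg1-positive over Arg1-negative Lyz2-positive cells, thinned to 1000 UMIs (x axis, log scale), for genes of 8 lists (y axis), with intervals for counting error as grey bars. Named red points are 2-fold or more higher, the solid line is 1 and the dotted line the median over all genes, 0.937. All 7 hypoxia and glycolysis genes lie right of both lines.

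Genes whose levels over 15 cell groups were most like those of each member were ranked by Pearson's r of log2(CPM + 5) among 11748 genes, as a description of profiles that share cells and libraries. For Arg1 they were Pstpip2 (0.976), C3ar1 (0.930), F13a1 (0.929), Apoc2 (0.924) and Ccl12 (0.917). Those of Arg2 were Tlr13 (0.991), Clec5a (0.981), Cd14 (0.981), Cd300ld (0.980) and Clec4d (0.976). Nos2 was nearest to Ets2 (0.899), Plaur (0.891), Fpr2 (0.887), Lcn2 (0.883) and Gpat3 (0.879). F13a1 was thus near Arg1 both over cell groups and within Lyz2-positive cells.

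Likeness was lower for the other members. Slc7a2 was nearest to Nt5dc2 (0.864), Ang (0.829), Fzd7 (0.826), Arid1b (0.826) and Usp27x (0.818). Ass1 was nearest to Naaa (0.888), Il1r2 (0.885), Scpep1 (0.885), Ube2j1 (0.878) and Traf3 (0.863), and Odc1 to Khdrbs1 (0.860), Reep4 (0.845), Thoc3 (0.834), Acbd5 (0.831) and Hdac1 (0.831).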

How the data were processed

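The authors deposited 1 matrix of UMI counts for all tumors together, made with Cell Ranger 7.1 on mm10, per the submitters' processing notes; its header names Cell Ranger 7.0.0, per the file headers. The members and gene lists were chosen with earlier results of these data known. The cell filter kept 500 or more detected genes and a mitochondrial share below 15%. Gates used raw UMIs of marker genes, with cut-offs set after seeing those markers but not the members. Lyz2-positive cells had 2 or more UMIs of Lyz2 and of Tyrobp plus Fcer1g. The dendritic gate took cells with under 2 Lyz2 UMIs, so dendritic cells with more Lyz2 can be among the Lyz2-positive cells. No doublet caller was run: 492 cells that passed more than 1 gate, or a host gate with 3 or more Xist UMIs (from the carcinoma line) or an immune gate with 20 or more stromal UMIs, were set aside, with a median of 12120 UMIs, and 2976 cells passed no gate. The part of free RNA in the low levels was not tested.

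Counts were summed per gate and scaled to 1000000. Intervals are exact Poisson for levels, Clopper-Pearson for shares and conditional binomial for ratios, at 95%, and a share of 0 allows up to 3 counts. Thinned values draw each cell to 1000 or 2000 UMIs without replacement and leave out shallower cells. List genes needed 50 UMIs and likeness 200. Named genes were the 6 members, list genes that were among the 3 highest in Lyz2-positive cells or 2-fold apart between C1q strata, the 5 most alike genes per member, and the 10 highest and 10 lowest with Arg1 in the same direction in every set with 20 cells of both kinds; other list genes were named after their values were seen, and some list genes are not reported here. The planned test of treated against vehicle tumors, edgeR on counts summed per tumor, was not run, since nothing ties cells to tumors. Alternatives were other cell filters, doubled cut-offs, cells of 2 kinds kept, a tag purity of 90%, other C1q splits, a cut-off of 2 Arg1 UMIs, thinning, and leaving out each barcode set. Leaving out the highest cell was chosen after seeing the data. The level, ratio and thinning steps were tested on simulated data. Python 3.11.15, numpy 2.4.6, scipy 1.17.1, pandas 2.3.3 and matplotlib 3.10.9 were used.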

Additional observations from a re-analysis of the deposited data

Results flagged for a closer look

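Odc1 in C1q-high cells of barcode set 3 was at 1236 CPM, far from the other 5 sets at 373 to 476 CPM. The set had 20 such cells. Ass1 in C1q-zero cells of the same set was at 139 CPM, over 37 cells, against 58.3 to 88.1 CPM in the other sets. Over 30 gene and group pairs looked at in this way, chance marks about 1 in 20.

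Neutrophil-gated cells outside the main cell filter, which enter no main comparison, had Arg2 in 32.1% of 224 cells (26.1 to 38.7) and at 608 CPM, while Arg1 was in 1 of them. Cells that passed no gate had Arg1 at 53.7 CPM over 2976 cells.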

How the results depend on the processing

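With cells of more than 1 gate kept, the Slc7a2 ratio of C1q-zero over C1q-high turned to 1.08, the Arg1 level was 588, 1136 and 706 CPM in C1q-high, C1q-low and C1q-zero cells, and the Arg1 ratio of C1q-low over C1q-high was 1.93. Doubled gate cut-offs gave Arg1 at 838 CPM in C1q-zero cells and Arg2 in 18.8% of Arg1-negative cells, and a tag purity of 90% gave Arg1 at 1107 CPM in C1q-zero cells. With the split on thinned cells Arg1 was at 605 CPM in C1q-high cells, its ratio 2.52, the Nos2 ratio 5.44 and the Odc1 ratio 0.848. With the split at 10 C1q UMIs Arg1 was at 776 CPM in C1q-high cells, its ratio 2.19 and the Nos2 ratio 5.29. Thinning to 1000 UMIs lowered Nos2 beside Arg1 to 7.18%, and Arg2 to 14.1% with and 8.02% without Arg1, and thinning to 2000 lowered the last to 11.3%. Apart from the thinned shares, which are lower by construction, the cause was not tested.

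Leaving out each barcode set in turn gave Arg1 levels of 902 to 1090 CPM in C1q-high, 1434 to 1776 in C1q-low and 962 to 1118 in C1q-zero cells. The Arg1 ratio ran from 1.44 to 1.74, that of Arg2 from 1.87 to 2.85 and that of Nos2 from 2.56 to 4.14. Nos2 was in 1.36% to 3.79% of Arg1-negative cells and Arg2 in 24.1% to 31.0% of Arg1-positive cells.

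No paired analysis was possible because no label ties cells to the numbered tumors. Shallow cells, with medians of 2423 UMIs in Lyz2-positive and 1838 in Lyz2-low myeloid cells, limit detection of Nos2, Slc7a2 and Ass1.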

Other observations

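Neutrophils were too few for a comparison of co-detection. Of 10 neutrophils with Arg1 under the main filter, 5 had Arg2, against 29 of 50 without Arg1. In the wider filter Nos2 was in 8.80% of 284 neutrophils (5.78 to 12.7), at 10.4% of Arg2-positive and 7.87% of Arg2-negative cells. By set, the neutrophil Nos2 level was 46.8, 0, 0, 52.6, 81.1 and 248 CPM, the highest again in set 6.

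Osteoclast-like cells, marked by Ctsk and Acp5, had low levels of these transcripts. In 175 cells with a median of 9468 UMIs, Arg1 was at 42.0 CPM, of which 1 cell gave 33.3%, Odc1 at 122 CPM, Ass1 at 5.61 CPM and Arg2 at 0.561 CPM. Mast cells or basophils had Arg1 in 2 of 73 cells and 0 UMIs of Arg2 and Ass1.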
